A study of Araneus ventricosus with 24 samples.

Results

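The proteins of the contractile apparatus were followed through cerebral ganglia and ampullate glands of the orb-weaving spider Araneus ventricosus. A transcript cluster of the deposited assembly was taken as a member when its closest protein in the NR or Swissprot database was named troponin, tropomyosin, paramyosin, myosin heavy chain, myosin light chain, twitchin, titin, muscle LIM, sarcalumenin or muscle actin, and when neither name held non-muscle or kinase. This wording found 108 of 142219 clusters, and 107 of them had at least 1 count. By name, 49 were titins, 15 myosin heavy chains, 12 troponins, 11 twitchins, 8 tropomyosins, 5 paramyosins, 4 sarcalumenins, 2 myosin light chains, 1 a muscle LIM protein and 1 a muscle actin. A number after a protein name below is the identifier of its cluster in that assembly, which has no genome coordinates.

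Spiders had been exposed to cadmium, to lead or to both metals for 30 days, or left untreated, and RNA of each tissue was sequenced. After 4 columns that repeated another library value for value were left out, each tissue had 3 cadmium, 2 lead, 2 cadmium plus lead and 3 untreated libraries, 20 in all. The labels give no dose, sex or age, and nothing says that the libraries came from separate animals, so the p-values measure only the spread between these libraries.

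In a striated muscle fibre, thick filaments of myosin, which in arthropods are built around a paramyosin core, pull on thin filaments of actin. Tropomyosin and the troponins C, I and T sit along the thin filament and release it for contraction when troponin C binds calcium. Titin and twitchin are giant elastic proteins that tie the filaments together, muscle LIM protein is a component of the Z disc, and sarcalumenin binds calcium inside the sarcoplasmic reticulum. The ampullate gland makes dragline silk in a secretory epithelium, and neither that epithelium nor neurons are known for this set of proteins.

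The name alone did not always point to muscle. In 63 clusters, here called the muscle clusters, the descriptions held none of a list of words for other proteins or organisms. That list was picked by hand after values had been seen. Of the other 45 members, 22 were titin-like clusters described elsewhere as cell adhesion molecules such as Dscam. The second description of 10 named another protein, and 5 had their closest protein in 1 of 5 listed organisms outside the arthropods. That list did not hold Gouania willdenowi (2 members), Chrysochloris asiatica, Mizuhopecten yessoensis or Pteropus alecto (1 each). Members with these closest proteins were not set apart for that reason. A further 4 of the 45 were bacterial twitching motility proteins, whose name begins like twitchin. Their 73 counts all lay in untreated gland replicate 1. Sarcalumenin 14303.0, whose 31 counts also all lay in that library, stayed among the muscle clusters. The nucleotide hit was a rat transcript for 3 clusters, namely actin 821.0, troponin T 927.0 and tropomyosin 903.0, and a spidroin for the last, titin-like 16698.46854. The rat hits held 27 and 16 counts in the lead ganglia, 7 and 1 in the ganglia given both metals, 11 in lead gland replicate 1 and 0 in every other library, and the only member named muscle actin was one of them.

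Estimated counts summed to between 14834065 and 20954478 per library. The 66 clusters named spidroin, the structural proteins of silk, took 0.196, 0.584 and 0.0994% of counts in untreated ganglia and 5.13, 18.4 and 7.01% in untreated glands. The 83 clusters with neuron names took 0.218 to 1.04% of counts in ganglion libraries and 0.108 to 0.166% in gland libraries. Within that list the tissues were apart for the names acetylcholine receptor (at least 0.153% in ganglia, at most 0.00901% in gland) and synapsin, and overlapped for elav, syntaxin-1, synaptobrevin, complexin and synaptotagmin, the last with the higher median in the gland (0.0424% in ganglia, 0.0705% in gland). A filter on low counts, applied in each tissue, passed 55 of the 63 muscle clusters in the ganglia, 42 in the gland and 56 when both tissues were fitted together. Because a cluster can pass through a single group in which it is high, counts and medians below describe the clusters that passed, not all members. A cluster was called where the edgeR quasi-likelihood test gave a Benjamini-Hochberg adjusted p under 0.05 over all clusters of the fit, and log2 values below are changes or differences from that fit.

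Muscle transcripts were abundant in the ganglia. The 63 muscle clusters together took 7.53, 6.01 and 5.04% of all counts in cadmium, 5.66 and 4.97% in lead, 6.75 and 4.16% in cadmium plus lead and 7.24, 3.93 and 4.69% in untreated ganglia. In the gland they took 0.15, 0.159 and 0.175% in cadmium, 0.0678 and 0.0934% in lead, 0.0696 and 0.0449% in cadmium plus lead and 0.773, 0.295 and 0.254% in untreated libraries. All 10 ganglion libraries thus lay above all 10 gland libraries, and the ratio of the group means, ganglia over gland, was 12 in untreated, 38.4 in cadmium, 65.9 in lead and 95.3 in cadmium plus lead spiders. Without untreated gland replicate 1 the log2 ratio in untreated spiders was 4.27 in place of 3.59. In bulk tissue, fewer muscle cells in a sample and less muscle RNA per cell cannot be told apart.

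**Figure D1:**
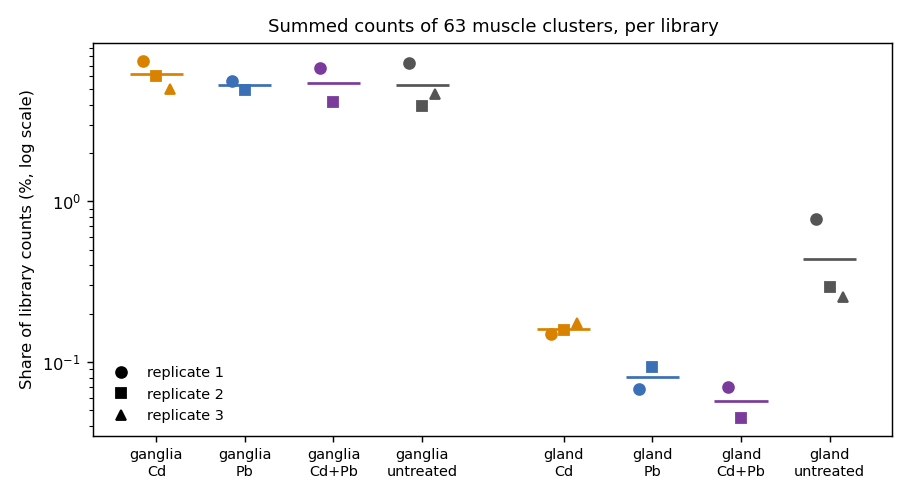
Share of all library counts (percent, log scale) taken by the 63 muscle clusters in each of the 20 libraries, ganglia on the left and gland on the right; horizontal lines are group means and symbols mark the replicate number. The ganglion groups overlap, while in the gland every exposed library lies below the lowest untreated one at 0.254%.

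On the per-length FPKM scale (fragments scaled to cluster length and library size), tropomyosin 16698.49021 ranked 9 of 142219 clusters by its mean in untreated ganglia and 148 in untreated glands. Troponin I 16698.50980, the subunit that holds the thin filament in its resting state, ranked 14 in untreated ganglia and 624 in untreated glands. Summed over its muscle clusters, tropomyosin averaged 17406 ± 6032 FPKM in untreated ganglia and 1429 ± 1100.2 FPKM in untreated glands (SD, n = 3 each). The troponins averaged 16512 ± 3206 FPKM in untreated ganglia and 857 ± 476 FPKM in untreated glands. Myosin heavy chain averaged 1089 ± 529 FPKM in untreated ganglia and 138 ± 89.5 FPKM in untreated glands. Higher means in ganglia were also found for paramyosin (2382 ± 866 against 116 ± 40.5 FPKM) and the myosin light chains (2431 ± 549 against 204 ± 106 FPKM). The 16 titin clusters stood closer, at 204 ± 112 FPKM in untreated ganglia and 59.7 ± 11.5 FPKM in untreated glands. For twitchin the mean was higher in glands, with 28.8 ± 21.3 FPKM in untreated ganglia and 129 ± 218 FPKM in untreated glands, of which the projectin fragment 16698.66868 alone held 373, 0.88 and 0 FPKM in replicates 1, 2 and 3.

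Of 78 members tested across tissues, 36 were called higher in untreated ganglia than in untreated glands and 0 lower. Among all clusters, 6.35% were called higher and 3.91% lower. The count was 50 higher with cadmium (all clusters, 6.04%), 45 with lead (3.70%) and 42 with both metals (4.32%). The median log2 difference of the tested members was 3.15 untreated, 5.04 with cadmium, 5.84 with lead and 5.79 with both metals, beside -0.10, -0.10, 0.01 and 0.01 for all clusters. At an unadjusted p under 0.05, 4 members were lower in untreated ganglia (all clusters, 14.7%), 6 with cadmium (16.6%), 1 with lead (7.81%) and 2 with both metals (8.31%). Without lead gland replicate 1 the count with lead was 27, and without lead gland replicate 2 it was 29.

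Among the largest untreated differences were paramyosin 16698.50675 (log2 difference 5.88 ± 0.72 SE, adjusted p = 0.000159) and troponin I 16698.50980 (5.31 ± 0.73 SE, adjusted p = 0.000376). Paramyosin 16698.31916 differed by 4.99 ± 0.68 SE and tropomyosin 16698.50028 by 4.93 ± 0.62 SE. The short myosin heavy chain cluster 16698.38732 had 31.8, 8.3 and 3.89 FPKM in untreated ganglia and 0, 0.22 and 0 FPKM in untreated glands. It was listed at 0 in all lead and cadmium plus lead glands, against 27.9 and 21.4 FPKM in lead ganglia and 23.2 and 14.6 FPKM in cadmium plus lead ganglia. With cadmium, troponin I 16698.19386 (7.75 ± 0.87 SE), titin 16698.71336 (6.52 ± 0.98 SE) and titin 16698.75081 (7.48 ± 1.18 SE) were among the largest differences; titin 16698.75081 is not a muscle cluster, since its other description names another protein. Myosin heavy chain 16698.30191 had 57, 83 and 157 counts in cadmium ganglia and 1, 3 and 0 counts in cadmium glands. With lead, myosin heavy chain 16698.40928 and paramyosin 16698.69586 were listed at 0 in both glands, against 3.67 and 2.89 and 15.6 and 10.3 FPKM in the ganglia, in that order of clusters. With both metals, troponin C 16698.50367 differed by 10.79 ± 0.82 SE and myosin heavy chain 16698.49961 by 11.04 ± 1.02 SE, and tropomyosin 16698.49020 was listed at 0 in both glands, against 15.9 and 11.1 FPKM in the ganglia. Some clusters with muscle names did not separate the untreated tissues: tropomyosin 16698.48980 had 88.7, 74.1 and 59.6 FPKM in untreated ganglia and 70.4, 85.8 and 48.8 FPKM in untreated glands, and these groups overlap. Titins 16698.46648, 16698.39464 and 16698.52649, myosin heavy chain 16698.42186 and tropomyosin 16698.19623 were not called in untreated spiders either. With cadmium, titins 16698.46648 (2.41 ± 0.45 SE, adjusted p = 0.00241) and 16698.39464 (2.09 ± 0.39 SE, adjusted p = 0.00263) were called higher in ganglia. The others just named were not called. Further muscle clusters were not called in untreated spiders, among them the abundant myosin heavy chain 16698.46103. Its untreated groups overlapped (1.77 ± 0.61 SE, edgeR adjusted p = 0.0735).

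In the gland, the 63 muscle clusters together were lower in each exposed group than in untreated glands. Over all 108 members, the cadmium and the cadmium plus lead libraries overlapped with untreated ones, as given further below. Relative to the untreated mean, the summed share of the 63 muscle clusters was 0.366 with cadmium, 0.183 with lead and 0.13 with both metals, and no exposed library reached an untreated one. Untreated replicate 1 stood above the other 2, and without it the log2 ratio was -0.77 with cadmium in place of -1.45, -1.77 with lead in place of -2.45 and -2.26 with both metals in place of -2.94. The 3 exposed groups were set against the same untreated libraries.

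With both metals, 9 of 57 tested members were called lower and 0 higher, where 0.106% of all clusters were called lower and 0.119% higher. All 9 were muscle clusters: troponin C, myosin light chain, myosin heavy chain, sarcalumenin, tropomyosin, 2 paramyosins and 2 titins. The tested muscle clusters had a median log2 change of -3.73, and all tested clusters one of -0.04. At an unadjusted p under 0.05, 30 members were lower (all clusters, 6.49%) and 1 higher; both cadmium plus lead libraries lay below every untreated one for 37 members (all clusters, 14.0%). DESeq2 called 29 members lower (all clusters, 4.19%) and 1 higher. For the unadjusted and DESeq2 counts in the gland, no share of all clusters is given for the higher direction. The edgeR count rested on particular libraries: it was 0 without untreated replicate 1 or without cadmium plus lead replicate 2, 3 without untreated replicate 2, 2 without cadmium replicate 1, 1 without cadmium replicate 2 or 3, and 14 without either lead library. It was also 1 with a block for replicate number and 0 when only these 2 groups entered the fit. No share of all clusters is given for these settings, so the counts show only how far the calls moved.

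With lead alone, edgeR called 0 members, as it called 0% of all clusters. At an unadjusted p under 0.05, 28 members were lower and 2 higher (all clusters lower, 4.76%), and DESeq2 called 20 lower and 1 higher (all clusters lower, 2.24%). Both lead libraries lay below every untreated one for 36 members (all clusters, 14.2%). The median log2 change of the tested muscle clusters was -2.60, and that of all clusters -0.15.

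With cadmium alone, edgeR called 0 members and 0% of all clusters. At an unadjusted p under 0.05, 14 members were lower and 0 higher (all clusters lower, 0.550%), while DESeq2 called 0 members lower (all clusters, 0.00899%). The 3 cadmium libraries lay below every untreated one for 20 members (all clusters, 3.77%), and the median log2 change of the tested muscle clusters was -1.26, beside 0.07 for all clusters. The group means fell in the order untreated, cadmium, lead, cadmium plus lead for 27 of 42 tested muscle clusters, and for 11.98% of all tested clusters.

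**Figure D2:**
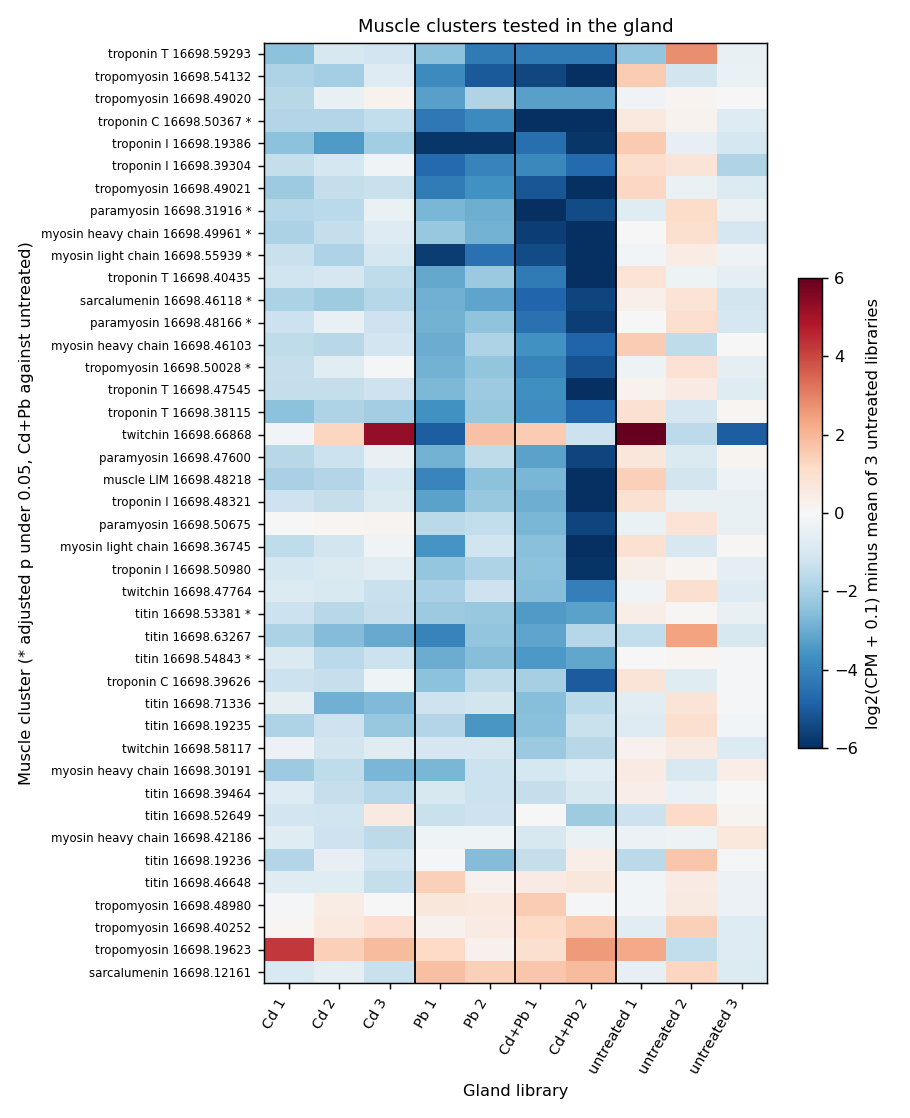
Level of the 42 muscle clusters tested in the gland, as log2(CPM + 0.1) minus the mean of the 3 untreated libraries, with 1 row per cluster and 1 column per gland library; exposed libraries are on the left. Among the exposed columns most rows are palest with cadmium and darkest blue with cadmium plus lead, while the 5 lowest rows, from titin 16698.46648 to sarcalumenin 16698.12161, are white or red in nearly all columns with lead.

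On the thin filament, troponin C 16698.50367, a calcium sensor, separated all 4 gland groups. It had 19.3, 17.6 and 16.8 FPKM in cadmium, 2.44 and 3.61 FPKM in lead, 0.48 and 0.52 FPKM in cadmium plus lead and 97.5, 55.5 and 29.8 FPKM in untreated glands. No 2 groups overlapped, and with both metals the log2 change was -6.81 ± 0.66 SE (edgeR adjusted p = 0.0132, 6.66e-26 to 0.179 over 15 alternatives). With cadmium its change was -1.68 ± 0.43 SE (adjusted p = 1) and with lead -4.03 ± 0.57 SE (adjusted p = 0.126). The other troponin C cluster, 16698.39626, had 23.6, 20.6 and 33.5 FPKM in cadmium, 7.71 and 15.9 FPKM in lead, 10.3 and 1.97 FPKM in cadmium plus lead and 99.5, 25.6 and 42.5 FPKM in untreated glands. Its cadmium and untreated libraries overlapped, and no change was called.

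Troponin T anchors the troponin complex to tropomyosin. Its cluster 16698.47545 had 43.4, 39.8 and 35.4 FPKM in cadmium, 13.4 and 21.1 FPKM in lead, 6.46 and 1.65 FPKM in cadmium plus lead and 138, 122 and 57.2 FPKM in untreated glands. With both metals its log2 change was -4.42 ± 0.81 SE and was not called (adjusted p = 0.0705), although both libraries lay below all untreated ones. Troponin I 16698.50980 had 123, 129.6 and 114 FPKM in cadmium, 38.6 and 57.5 FPKM in lead, 33 and 4.91 FPKM in cadmium plus lead and 319, 208 and 136 FPKM in untreated glands. Its groups with lead lay below the others, and replicate 2 of cadmium plus lead was the lowest of the 10 libraries. Across the 10 tested troponin clusters the median log2 change was -1.35 with cadmium, -2.84 with lead and -5.07 with both metals, and troponin C 16698.50367 was the only one called.

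Tropomyosin, the coiled coil that blocks myosin binding sites at rest, had clusters that were low with lead and clusters that were not. Tropomyosin 16698.50028 had 93.7, 141 and 158 FPKM in cadmium, 25.2 and 37.8 FPKM in lead, 10.4 and 7.53 FPKM in cadmium plus lead and 193, 317 and 132 FPKM in untreated glands. Cadmium overlapped with untreated, and the change with both metals was called (-4.48 ± 0.69 SE, adjusted p = 0.0458, 5.32e-10 to 0.24 over 15 alternatives). Tropomyosin 16698.49021 had 213, 345 and 269 FPKM in cadmium, 41.9 and 66.6 FPKM in lead, 20.5 and 2.91 FPKM in cadmium plus lead and 2234, 524 and 417 FPKM in untreated glands; it was not called (-6.23 ± 1.21 SE with both metals, adjusted p = 0.0837). By contrast, tropomyosin 16698.48980 had 73.8, 100.2 and 55.9 FPKM in cadmium, 94.9 and 96 FPKM in lead, 158 and 90.7 FPKM in cadmium plus lead and 70.4, 85.8 and 48.8 FPKM in untreated glands. Its log2 change with both metals was 1.03 ± 0.49 SE (adjusted p = 0.349), and its ganglion level, 88.7, 74.1 and 59.6 FPKM untreated, overlapped with that of untreated glands. Tropomyosin 16698.40252 (1.23 ± 0.74 SE), tropomyosin 16698.19623 (1.34 ± 1.55 SE) and titin 16698.46648 (0.74 ± 0.48 SE) also had a positive log2 change with both metals that was not called; these 3 were chosen after their values were seen. Tropomyosins also occur in non-muscle cells, and the descriptions do not say which kind a cluster encodes.

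On the thick filament, myosin heavy chain 16698.49961, the motor protein itself, had 15.1, 18.9 and 23.2 FPKM in cadmium, 8.52 and 6.23 FPKM in lead, 0.77 and 0.71 FPKM in cadmium plus lead and 57.9, 79.4 and 22.2 FPKM in untreated glands. Both cadmium plus lead libraries lay under every other gland library, and the change was called (-6.05 ± 0.78 SE, adjusted p = 0.0318, 1.79e-15 to 0.221 over 15 alternatives). Its neighbour 16698.46103 had 21.6, 18.1 and 19.9 FPKM in cadmium, 5.8 and 13.8 FPKM in lead, 3.43 and 2.6 FPKM in cadmium plus lead and 180.4, 16 and 49.3 FPKM in untreated glands, with untreated replicate 1 far above the rest. It was not called (-4.51 ± 0.97 SE with both metals, adjusted p = 0.0989). Myosin heavy chain 16698.45687, set apart from the muscle clusters by the word list, with a hypothetical protein as its other description, had 3.6, 4.01 and 1.34 FPKM in cadmium, 3.36 and 3.08 FPKM in lead, 4.61 and 3.55 FPKM in cadmium plus lead and 4.3, 2.85 and 2.14 FPKM in untreated glands and was not called (adjusted p = 0.635 with both metals). Myosin heavy chain 16698.60238, also set apart, was higher in every gland library with lead than in every untreated one, without a call. In lead ganglia it also lay above every untreated library and was not called (2.73 ± 0.92 SE, edgeR adjusted p = 0.11). In the gland it had 86, 241 and 65 counts in cadmium, 446 and 500 in lead, 329 and 354 in cadmium plus lead and 41, 81 and 55 in untreated libraries.

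The alkali light chain stiffens the lever arm of myosin. Myosin light chain 16698.55939 had 30.2, 19.5 and 26.3 FPKM in cadmium, 1.04 and 2.73 FPKM in lead, 1.25 and 1.07 FPKM in cadmium plus lead and 69.5, 78.5 and 49.1 FPKM in untreated glands. It was called with both metals (-5.73 ± 0.67 SE, adjusted p = 0.0192, 5.23e-19 to 0.179 over 15 alternatives) and missed the threshold with lead (-4.90 ± 0.64 SE, adjusted p = 0.121). Myosin light chain 16698.36745 had 46.9, 59 and 81.8 FPKM in cadmium, 8.55 and 47.6 FPKM in lead, 16.6 and 1.7 FPKM in cadmium plus lead and 256, 50.8 and 109.9 FPKM in untreated glands; cadmium overlapped with untreated and lead with cadmium, and no change was called.

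Of the paramyosins, 16698.48166 had 3.12, 5.16 and 2.31 FPKM in cadmium, 0.77 and 1.13 FPKM in lead, 0.22 and 0.14 FPKM in cadmium plus lead and 7.9, 11.5 and 3 FPKM in untreated glands. It was called with both metals (-5.23 ± 0.84 SE, adjusted p = 0.0477, 1.53e-09 to 0.274 over 15 alternatives), as was 16698.31916 (-6.12 ± 0.93 SE, adjusted p = 0.0455, 5.37e-09 to 0.234 over 15 alternatives). Paramyosin 16698.47600, the most abundant by counts, had 24.9, 29.5 and 41.6 FPKM in cadmium, 8.01 and 21.4 FPKM in lead, 5.97 and 2.03 FPKM in cadmium plus lead and 129, 31.7 and 70.2 FPKM in untreated glands and was not called (adjusted p = 0.11 with both metals). Paramyosin 16698.50675 had 27.2, 26.9 and 21.3 FPKM in cadmium glands and 20.2, 34.6 and 15.3 FPKM in untreated ones, which overlap, and 6.41 and 7.49 FPKM in lead and 2.73 and 0.58 FPKM in cadmium plus lead glands.

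Among the elastic proteins, titin 16698.54843 had 4.3, 2.35 and 2.31 FPKM in cadmium, 0.73 and 1.03 FPKM in lead, 0.5 and 1.06 FPKM in cadmium plus lead and 7.84, 6.26 and 5.77 FPKM in untreated glands. Titin 16698.53381 had 1.38, 0.98 and 0.93 FPKM in cadmium, 0.53 and 0.55 FPKM in lead, 0.22 and 0.41 FPKM in cadmium plus lead and 4.52, 2.57 and 1.93 FPKM in untreated glands. Every exposed library lay below every untreated one for both titins, and both were called with both metals (16698.54843, -3.09 ± 0.46 SE, adjusted p = 0.0417, 8.3e-09 to 0.274 over 15 alternatives; 16698.53381, -3.21 ± 0.49 SE, adjusted p = 0.0458, 3.83e-08 to 0.301 over 15 alternatives). Twitchin 16698.47764 showed 0.4, 0.34 and 0.2 FPKM in cadmium, 0.13 and 0.24 FPKM in lead, 0.08 and 0.04 FPKM in cadmium plus lead and 0.62, 1.05 and 0.33 FPKM in untreated glands, with overlap between cadmium and untreated. Twitchin 16698.58117 had 0.75, 0.4 and 0.41 FPKM in cadmium, 0.34 and 0.38 FPKM in lead, 0.14 and 0.35 FPKM in cadmium plus lead and 1.14, 1.02 and 0.43 FPKM in untreated glands, and neither twitchin was called. A fragment named projectin, 16698.66868, followed another course, with 3.42, 9.04 and 109 FPKM in cadmium, 0 and 11.1 FPKM in lead, 8.19 and 1.83 FPKM in cadmium plus lead and 373, 0.88 and 0 FPKM in untreated glands. It was high in untreated replicate 1 and cadmium replicate 3 and low in the ganglia, where the highest value was 1.98 FPKM.

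Muscle LIM protein 16698.48218 had 56.2, 57.8 and 73.9 FPKM in cadmium, 10.3 and 30.7 FPKM in lead, 22.3 and 2.83 FPKM in cadmium plus lead and 582, 73.6 and 137 FPKM in untreated glands. Cadmium replicate 3 just exceeded untreated replicate 2, the groups with lead lay below both, and no change was called (adjusted p = 0.211 with both metals). Sarcalumenin 16698.46118 had 1.98, 1.54 and 1.59 FPKM in cadmium, 0.73 and 0.63 FPKM in lead, 0.17 and 0.15 FPKM in cadmium plus lead and 9.31, 9.72 and 2.73 FPKM in untreated glands. It was called with both metals (-5.40 ± 0.79 SE, adjusted p = 0.0388, 1.09e-10 to 0.24 over 15 alternatives). A second sarcalumenin, 16698.12161, had 0.27, 0.33 and 0.13 FPKM in cadmium, 1.56 and 1.33 FPKM in lead, 1.34 and 2.73 FPKM in cadmium plus lead and 0.38, 1.08 and 0.23 FPKM in untreated glands; both groups with lead lay above untreated, without a call (adjusted p = 0.344 with both metals). Another cluster with that name, 16698.27773, resembled a starmaker protein in its other description and had 88, 44 and 233 counts in cadmium and 671, 12 and 0 counts in untreated glands.

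The combined exposure was also set against each single metal. In the gland, cadmium plus lead against lead gave 0 called members (all clusters, 0%), 10 lower at an unadjusted p under 0.05 (all clusters, 1.11%) and 2 lower by DESeq2 (all clusters, 0.265%). Myosin heavy chain 16698.49961 was the member with the lowest p there, with a log2 change of -3.49 ± 0.70 SE (adjusted p = 1). Cadmium plus lead against cadmium gave 0 called members (all clusters, 0%), 25 lower at an unadjusted p under 0.05 (all clusters, 5.99%) and 18 lower and 1 higher by DESeq2 (all clusters lower, 2.68%). The median log2 change of the tested muscle clusters was -0.98 against lead and -2.51 against cadmium, beside 0.04 and -0.12 for all clusters.

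Other cell types in the gland samples were followed by lists of marker names. The 30 clusters named for hemolymph and hemocytes took 0.0657 to 0.403% of counts in cadmium, 0.0299 to 0.0578% in lead, 0.101 to 0.139% in cadmium plus lead and 0.124 to 0.74% in untreated glands. Silk gland clusters took 10.7 to 12.4% in cadmium, 8.01 to 14.4% in lead, 5.26 to 12.3% in cadmium plus lead and 5.13 to 18.4% in untreated glands. Neuron clusters took 0.108 to 0.161% in cadmium, 0.149 to 0.166% in lead, 0.14 to 0.166% in cadmium plus lead and 0.114 to 0.138% in untreated glands. Cuticle clusters took 0.0718 to 0.125% in cadmium, 0.0327 to 0.0778% in lead, 0.0326 to 0.111% in cadmium plus lead and 0.0965 to 0.128% in untreated glands. Midgut clusters took 0.195 to 0.284% in cadmium, 0.105 to 0.147% in lead, 0.0744 to 0.212% in cadmium plus lead and 0.133 to 0.18% in untreated glands. Both lead libraries lay below every untreated one for the hemolymph and cuticle lists, and both cadmium plus lead libraries lay so for none of these 5 lists. Among 22 tested hemolymph clusters, 20 had a log2 change below 0 with both metals, for which no share of all clusters is given. Of these 22, 0 were called (all clusters lower, 0.106%) and 0 had an unadjusted p under 0.05 (all clusters lower, 6.49%). Among 60 tested silk clusters the median log2 change with both metals was 5.75, and 12 were called higher (all clusters, 0.119%). The summed silk share did not rise with it, averaging 8.76% with both metals and 10.2% in untreated glands. The part of these lists in the muscle result was not tested. The names prophenoloxidase and tachylectin matched no cluster.

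The titin-like cluster 16698.46854, whose nucleotide hit is a spidroin, decided the summed level when every member was counted. It had 1262, 1859 and 658 FPKM in cadmium, 44.9 and 289 FPKM in lead, 515 and 1402 FPKM in cadmium plus lead and 352, 33 and 577 FPKM in untreated glands. In the ganglia the highest value was 113 FPKM, and it was the only member called lower in ganglia than in glands, in cadmium spiders (-7.22 ± 1.42 SE, adjusted p = 0.00471). With it included, all 108 members took 0.395, 0.512 and 0.304% of counts in cadmium, 0.081 and 0.153% in lead, 0.171 and 0.312% in cadmium plus lead and 0.852, 0.306 and 0.367% in untreated glands. The cadmium, cadmium plus lead and untreated libraries overlap on that measure, whose log2 ratio of means to untreated was -0.33 with cadmium, -2.12 with lead and -1.07 with both metals. The other members were scarce there: the 10 with another protein in the second description took at most 0.0103% of any gland library, and the 22 described as adhesion molecules did not pass the filter in the gland.

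**Figure D3:**
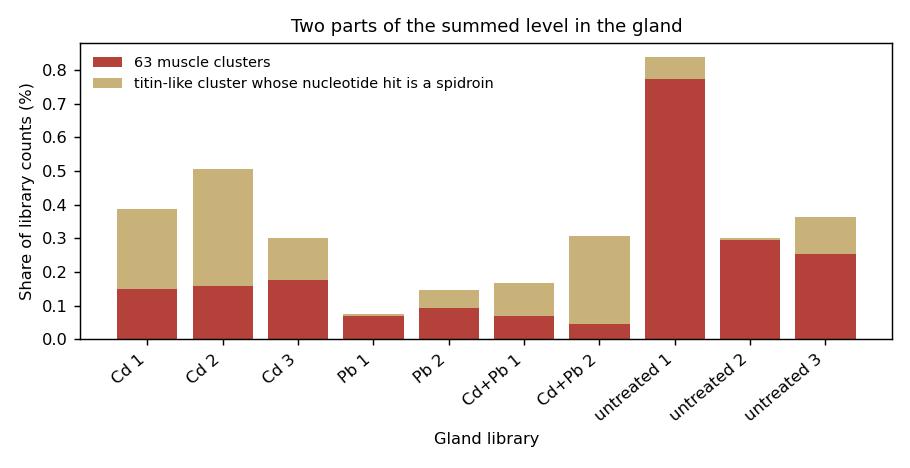
Share of gland library counts (percent) taken by the 63 muscle clusters (red) and, stacked on them, by the titin-like cluster with a spidroin nucleotide hit (tan), in the 10 gland libraries, exposed on the left. The tan part exceeds the red part in cadmium replicates 1 and 2 and in both cadmium plus lead libraries.

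In the ganglia, no exposed group separated from untreated in the summed share of the muscle clusters. The log2 ratio of the mean share was 0.23 with cadmium, 0.01 with lead and 0.05 with both metals, and each exposed group overlapped with untreated ganglia. The most abundant cluster of each ganglion library took between 11.8 and 35.4% of its counts, and in cadmium plus lead replicate 2 cuticle clusters took 1.46%, against at most 0.0299% in the other 9 ganglion libraries; the part of either in these shares was not tested. Cadmium against untreated gave 0 called members (all clusters, 0%), 5 higher and 1 lower at an unadjusted p under 0.05 (all clusters in either direction, 7.62%) and 0 by DESeq2 (all clusters, 0.323%). Cadmium plus lead against cadmium gave 0 (all clusters, 0.908%), with 2 higher and 10 lower at an unadjusted p under 0.05 (17.8%) and 1 higher and 4 lower by DESeq2 (6.96%). Cadmium plus lead against lead gave 0 (all clusters, 0%), with 1 higher and 0 lower at an unadjusted p under 0.05 (5.80%) and 0 by DESeq2 (0.435%).

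With lead, 1 of 72 tested members was called higher in the ganglia (all clusters, 2.67%) and 2 were called lower (all clusters, 2.24%). The only muscle cluster among them was troponin I 16698.39304, with 165, 72 and 82.7 FPKM in cadmium, 26.5 and 17.4 FPKM in lead, 31.1 and 24.3 FPKM in cadmium plus lead and 158, 83.3 and 131 FPKM in untreated ganglia. All 4 libraries with lead lay below all 6 without it, and the change with lead was called (-3.0 ± 0.65 SE, adjusted p = 0.0347, 9.34e-12 to 0.306 over 15 alternatives). With both metals its change was -2.54 ± 0.63 SE and was not called (adjusted p = 0.0712). In the gland the same cluster had 1.85, 2.37 and 3.3 FPKM in cadmium, 0 and 0.11 FPKM in lead, 0.12 and 0 FPKM in cadmium plus lead and 11.3, 6.88 and 1.07 FPKM in untreated libraries.

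Myosin light chain 16698.55939 was also low in lead ganglia, with 1071, 824 and 688 FPKM in cadmium, 474 and 343 FPKM in lead, 1013 and 557 FPKM in cadmium plus lead and 1311, 918 and 1438 FPKM in untreated ganglia. The lead libraries did not overlap with untreated ones, but the change missed the threshold (-2.07 ± 0.55 SE, adjusted p = 0.0572). Both lead libraries also lay below every untreated one for tropomyosin 16698.54132 (-2.03 ± 0.64 SE) and paramyosin 16698.69586 (-2.04 ± 0.59 SE). They lay above every untreated one for titin 16698.77814 (3.20 ± 0.93 SE) and twitchin 16698.47764 (1.18 ± 0.67 SE). None of these was called, and they were chosen after their values were seen. The other called members were not muscle clusters. Titin 16698.67731, described elsewhere as a transforming growth factor induced protein, had 24.3 and 12.1 FPKM in lead and 81, 54.6 and 122 FPKM in untreated ganglia (-2.77 ± 0.63 SE, adjusted p = 0.0398, 1.26e-08 to 0.324 over 15 alternatives). Titin-like 16698.77406, described elsewhere as the neural adhesion molecule Dscam2, had 71 and 152 counts in lead, 38 and 17 counts in cadmium plus lead and 0, 2 and 0 counts in untreated ganglia. It was called higher with lead (adjusted p = 0.0149, 4.01e-11 to 0.155 over 15 alternatives) and with both metals (adjusted p = 0.0489, 3.12e-06 to 0.145 over 15 alternatives). It was the only member called with both metals (all clusters, 0.587% higher and 0.468% lower), and at an unadjusted p under 0.05 3 members were higher (all clusters, 12.2%) and 7 lower (9.92%). With lead, DESeq2 called 4 members higher (all clusters, 6.61%) and 7 lower (7.17%), and with both metals 2 higher (6.38%) and 4 lower (3.66%). The lead calls numbered 0 without either lead library, 5 without untreated replicate 2 and 1 without untreated replicate 3, and the call with both metals was lost without any 1 ganglion library other than untreated replicate 2.

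The difference between the tissues' changes was tested directly. With both metals, 5 of 78 members were called, all with a more positive change in ganglia than in gland, where 0.0212% of all clusters were called in that direction; DESeq2 called 20 members so (all clusters, 0.936%). They were troponin C 16698.50367 (ganglia minus gland, 6.55 ± 0.77 SE, adjusted p = 0.00825), myosin heavy chain 16698.49961 (6.77 ± 0.97 SE), paramyosin 16698.48166 (5.91 ± 0.95 SE), sarcalumenin 16698.46118 (5.58 ± 0.83 SE) and myosin light chain 16698.55939 (4.96 ± 0.80 SE). In the ganglia, troponin C 16698.50367 had 1089 and 588 FPKM with both metals and 1187, 743 and 863 FPKM untreated, and myosin heavy chain 16698.49961 had 1983 and 1066 FPKM with both metals and 1085, 371 and 1108 FPKM untreated. Paramyosin 16698.48166 had 241 and 218 FPKM with both metals and 229, 68.9 and 102 FPKM untreated, and sarcalumenin 16698.46118 had 159 and 77.7 FPKM with both metals and 116, 52 and 125 FPKM untreated. For all 5 clusters both cadmium plus lead glands lay below every untreated gland. The count was 0 without gland cadmium plus lead replicate 2 and 16 without its replicate 1. It was 1 to 3 without any 1 of gland cadmium replicates 1, 2 and 3, ganglia cadmium replicates 2 and 3, ganglia cadmium plus lead replicate 1 and ganglia untreated replicates 2 and 3.

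The same test gave 0 called members with lead (all clusters, 0%), 27 more positive in ganglia at an unadjusted p under 0.05 (all clusters, 3.33%) and 7 by DESeq2 (all clusters, 0.162%). With cadmium it gave 0 (all clusters, 0%), 19 at an unadjusted p under 0.05 (all clusters, 1.50%) and 2 by DESeq2 (all clusters, 0.0520%). All 3 tests share their untreated libraries.

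**Figure D4:**
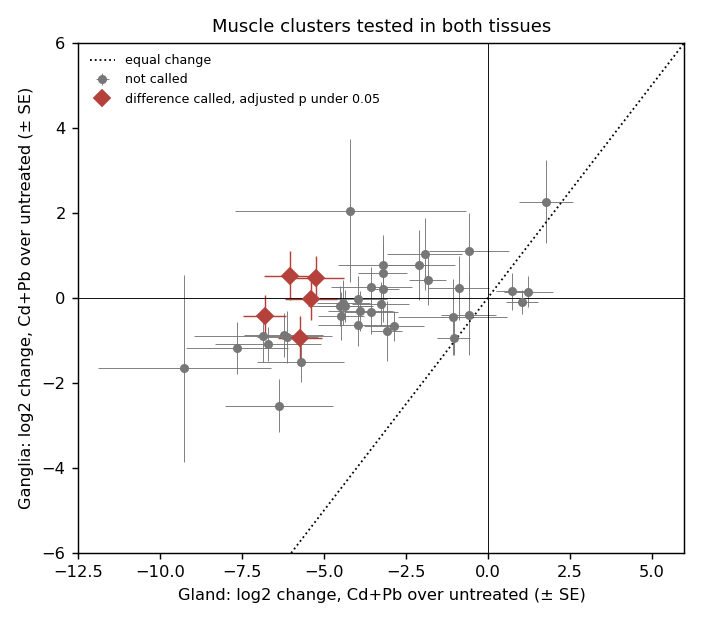
Log2 change with cadmium plus lead over untreated in the gland (horizontal) and in the ganglia (vertical), each ± SE, for the 41 muscle clusters tested in both tissues; the dotted line marks equal change. For 38 clusters the ganglion change is above the gland change, and the red diamonds are the 5 clusters called in the test of that difference.

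Clusters of the same protein changed their proportions between libraries. The ratio of myosin heavy chain 16698.49961 (hit named isoform X8) to 16698.46103 (isoform X2), in FPKM, was 2.44, 1.72 and 1.94 in cadmium, 4.53 and 3.23 in lead, 7.99 and 5 in cadmium plus lead and 3.06, 3.46 and 6.39 in untreated ganglia. In the gland it was 0.698, 1.04 and 1.16 in cadmium, 1.47 and 0.453 in lead, 0.224 and 0.273 in cadmium plus lead and 0.321, 4.97 and 0.45 in untreated libraries. It exceeded 1 in all 10 ganglion libraries and in 4 of 10 gland libraries, and the cadmium ganglia lay below all other ganglia. The ratio was not tested, and how the counting divided reads between such similar clusters is not given in the sources used here, so levels of single clusters are uncertain.

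Troponin T 16698.59293 was present or nearly absent from library to library within a group. It had 17.8, 238 and 139 FPKM in cadmium, 109.6 and 188 FPKM in lead, 0.31 and 111 FPKM in cadmium plus lead and 353, 0.52 and 1.38 FPKM in untreated ganglia, an 861-fold range (with 0.1 FPKM added) that was the widest of 35 muscle clusters averaging at least 10 FPKM in ganglia. The median range of these 35 was 3.79-fold, and that of 6864 clusters of all kinds at this level 3.42-fold. In the gland it reached 1.42, 49.8 and 5.41 FPKM in untreated libraries. This cluster was picked for its spread.

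**Figure D5:**
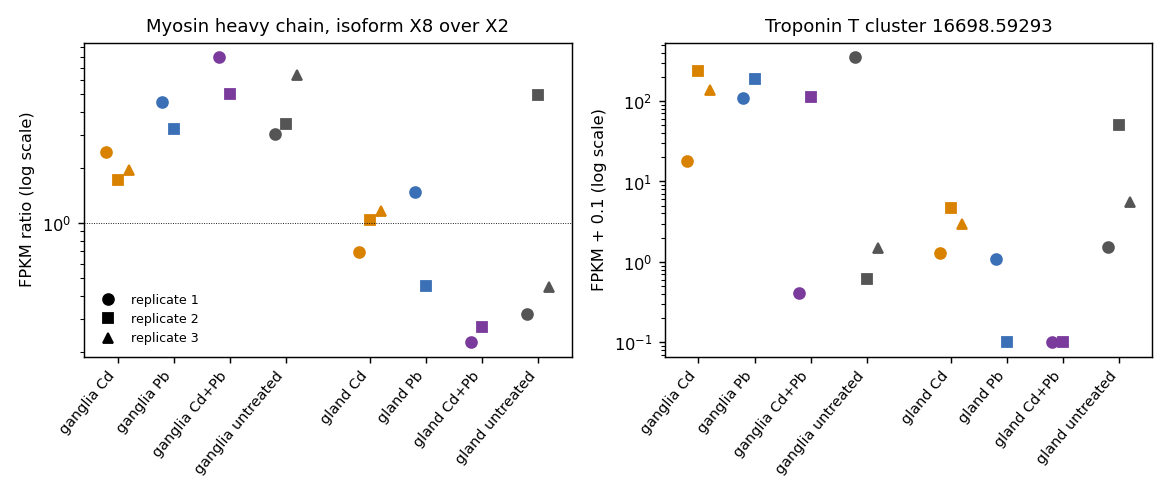
Left, FPKM ratio of the myosin heavy chain clusters with isoform X8 and X2 hits (log scale), and right, FPKM + 0.1 of troponin T 16698.59293 (log scale), in each of the 20 libraries; symbols mark the replicate number. The myosin ratio is above 1 in every ganglion library, and troponin T spans 0.31 to 353 FPKM among ganglion libraries.

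Within the ganglia, untreated replicate 2 and cadmium plus lead replicate 2 were low in the longest muscle clusters. For the 4 muscle clusters of at least 10000 bases, the median log2 ratio of untreated replicate 2 to the mean of replicates 1 and 3 was -2.44, where the 135 clusters of all kinds of that length had -0.42. For the 38 muscle clusters under 3000 bases it was -0.94, beside -0.04 for all. The ratio of cadmium plus lead replicate 2 to replicate 1 was -1.84 for the 4 long and -1.11 for the short muscle clusters, against 0.01 and -0.04 for all. Twitchin 16698.47764, one of the 4 long clusters, had 17.1, 25.6 and 25.6 FPKM in cadmium, 27.2 and 35.4 FPKM in lead, 24.7 and 10.6 FPKM in cadmium plus lead and 17.9, 2.59 and 9.06 FPKM in untreated ganglia. The part of cluster length in the ganglion comparisons was not tested.

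A further 78 clusters outside the members were named for other muscle proteins. In the gland with both metals 1 of 59 tested was called lower (all clusters, 0.106%) and 0 higher (all clusters, 0.119%). The called one was PDZ and LIM domain protein 16698.52171, a Z-disc adaptor, with 1.11 and 0.424 CPM (counts scaled to library size) in cadmium plus lead and 10.7, 33 and 22.6 CPM in untreated glands (-4.68 ± 0.77 SE, adjusted p = 0.0491). Arginine kinase 16698.47906, which regenerates ATP in arthropod muscle, had 117 and 21.1 CPM in cadmium plus lead and 908, 1910.5 and 865 CPM in untreated glands and was not called (adjusted p = 0.0852). The ryanodine receptor 16698.66663, the calcium release channel, had 3.69 and 1.12 CPM in cadmium plus lead and 31.8, 29 and 16.8 CPM in untreated glands (adjusted p = 0.0823). The median log2 change of this list in the gland was -0.20 with cadmium, -0.19 with lead and -0.18 with both metals. The medians of all clusters for these comparisons are given above, and that with lead was close to the value of this list. The other named clusters of this list with both metals were a calcium pump 16698.40629 (-2.82 ± 0.86 SE), Zasp 16698.44474 (-4.22 ± 0.81 SE), obscurins 16698.53972 (-0.87 ± 0.62 SE) and 16698.51761 (-1.14 ± 0.54 SE) and the actin crosslinker alpha-actinin 16698.48080 (0.59 ± 0.41 SE), of which 0 were called. In the ganglia with lead, 8 of 62 were called higher and 0 lower (all clusters, 2.67% and 2.24%), among them a calcium pump of the sarcoplasmic reticulum, 16698.45350 (1.53 ± 0.33 SE, adjusted p = 0.0342), and the giant protein obscurin 16698.31799 (2.44 ± 0.55 SE, adjusted p = 0.0371). That pump was not particular to ganglia, with 17.9, 16.1 and 12.4 CPM in untreated ganglia and 26.1, 82.1 and 12.2 CPM in untreated glands. Obscurin 16698.31799 had 73.3, 20.2 and 22.3 CPM in untreated ganglia and 1.9, 17.4 and 2.1 CPM in untreated glands. The more abundant pump 16698.40629 had 1385 and 772 CPM in lead and 2317, 506 and 1853 CPM in untreated ganglia, which overlap. Between untreated tissues 25 of 67 were called higher in ganglia than in glands and 3 lower (all clusters, 6.35% and 3.91%).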

How the data were processed

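RNA of 2 tissues was sequenced in 24 deposited columns, of which 4 equalled another column of their group in every cluster and were counted once. The estimated counts per cluster were deposited by the authors and were rounded to whole numbers here. The deposited FPKM values were taken as FPKM because they follow from count, length and library total, since no header names the unit. Per the labels, total RNA was purified with the RNeasy kit and SMARTER libraries were sequenced on a NovaSeq. How reads were assembled, mapped and divided between similar clusters is not given in the sources used here.

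Counts were fitted with edgeR 4.0.16 in R 4.3.3 (TMM scaling, filterByExpr with a minimum count of 10, robust quasi-likelihood test), within each tissue for exposures and over both tissues for tissue differences and interactions, 17 comparisons in all. P-values were adjusted by Benjamini-Hochberg over all clusters of a fit, and the threshold was 0.05. Each SE of a log2 value was its absolute size divided by the square root of the quasi-likelihood F statistic. It was thus derived from the test and not estimated apart from it. The fit was tested on simulated data. DESeq2 1.42.0, another scaling, no filter, only the groups compared, a block for replicate number and leaving out each library were the alternatives. CPM was computed from the counts. Named clusters were the 3 with the highest mean CPM of each protein, up to 10 called in each exposure comparison, up to 5 called in each direction between tissues among those averaging at least 1 CPM, and up to 8 called clusters of the list of other muscle genes; others were chosen after their values were seen. The members and lists were chosen with earlier results of these data known. The depth of 14834065 to 20954478 counts per library limits the precision of clusters with few counts.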

Additional observations from a re-analysis of the deposited data

Results flagged for a closer look

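For 5 clusters the change with cadmium plus lead differed between the tissues by the edgeR test of the interaction. The ganglia minus gland difference was 6.55 for troponin C 16698.50367, 6.77 for myosin heavy chain 16698.49961, 5.91 for paramyosin 16698.48166, 5.58 for sarcalumenin 16698.46118 and 4.96 for myosin light chain 16698.55939, all on the log2 scale, with adjusted p between 0.00825 and 0.0459. Leaving out gland cadmium plus lead replicate 2 ended all 5 calls.

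For 2 twitchins, in scaled CPM, every ganglion library of an exposed group lay above every untreated one and every gland library of that group below every untreated one. With cadmium, twitchin 16698.47764 differed by 2.18 on the log2 scale (ganglia minus gland change of the mean). With lead the difference was 2.94 for twitchin 16698.47764 (adjusted p = 0.71 in the edgeR interaction) and 1.83 for twitchin 16698.58117 (adjusted p = 0.793). The separation itself was not tested. In FPKM it held with lead for both, while the cadmium and untreated libraries of 16698.47764 overlapped in each tissue.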

How the results depend on the processing

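The counts of called members moved most where the filter, the tool or the libraries in the fit changed. Shares of all clusters for DESeq2 stand with the results above, in 1 direction only for the gland and the interaction. For left-out libraries, the block and the compared groups alone, counts here and above have no such share. Those counts show only how far the calls moved. Without a filter on low counts, gland counts were 17 with lead (all clusters, 1.10%), 27 with both metals (1.66%), 17 against cadmium (1.17%) and 1 against lead (0.0862%). Ganglion counts without the filter were 4 with cadmium (0.488%), 16 with lead (4.11%), 7 with both metals (3.42%), 8 against cadmium (2.65%) and 2 against lead (0.565%), and interaction counts were 6 with cadmium (0.110%), 11 with lead (0.192%) and 22 with both metals (0.507%). DESeq2 counts, over both directions, were 21 with lead, 30 with both metals, 19 against cadmium and 2 against lead in the gland. In the ganglia they were 11 with lead, 6 with both metals and 5 against cadmium, and for the interaction 2 with cadmium, 7 with lead and 20 with both metals. When only the groups compared entered the fit, the count was 0 in the gland with both metals, 0 in the ganglia with lead and with both metals, 1 in the ganglia against cadmium and 0 for the interaction with both metals. Counts between tissues stayed within 1.5 times of those reported under these settings.

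With each library left out in turn, counts ran from 0 to 14 in the gland with both metals, 0 to 2 with lead and 0 to 4 against cadmium. In the ganglia they ran from 0 to 5 with lead, 0 to 2 with both metals and 0 to 1 against cadmium. Interaction counts ran from 0 to 16 with both metals and 0 to 1 with lead, and the count between lead tissues from 27 to 47. The gland count with lead was 2 without cadmium plus lead replicate 1 or untreated replicate 3. All 9 members called in the gland with both metals were also called by DESeq2, with the other scaling and without the filter. Of these 9, the block for replicate number kept 1, and the fit of only the groups compared kept 0. The summed level of the muscle clusters alone was -1.45 with cadmium and -2.94 with both metals on the log2 scale in the gland, where that of all members was -0.33 and -1.07. Leaving out libraries, the gland summed level of all members ran from -0.59 to 0.26 with cadmium, -2.65 to -1.52 with lead and -1.57 to -0.48 with both metals. In the ganglia it ran from 0.055 to 0.52 with cadmium, -0.16 to 0.30 with lead and -0.34 to 0.35 with both metals, and between untreated tissues from 3.09 to 3.98.

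Correlations between same-numbered replicates ran from -0.20 to 0.31 in the gland (median -0.050) and from -0.27 to 0.19 in the ganglia (median 0.075). Between differently numbered replicates the medians were 0.050 in the gland and -0.064 in the ganglia. In groups of 2 libraries the values are mirror images of each other, so they cannot decide whether replicates were paired. With the replicate number as a block the count was 1 in the gland with both metals, 0 in the ganglia with both metals, 4 in the ganglia with lead and 1 for the interaction with both metals. Crossing the 2 numbers of cadmium plus lead against lead, an alternative added after the data were seen, gave 0 in each tissue.

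Directions turned in the gland for changes that were not called. With a library left out, tropomyosin 16698.48980 with cadmium ran from -0.078 (untreated replicate 3) to 0.43, and was -0.026 without cadmium replicate 2. Tropomyosin 16698.49020 with cadmium ran from -0.99 to 0.0078. Paramyosin 16698.50675 with cadmium ran from -0.21 to 0.56, with -0.068 without untreated replicate 1, -0.015 with the other scaling and with DESeq2, and -0.022 with only the groups compared. Projectin 16698.66868 ran from -4.24 to 6.68 with cadmium, -13.64 to 3.70 with lead and -6.11 to 3.63 with both metals, each highest value being without untreated replicate 1. Depth limits what can be said of clusters with few counts, such as the 73 counts of the bacterial names.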
